A study of Drosophila melanogaster with 2 samples.

Results

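Of the 6790 summits in the conservative peak set of the tagged fly protein CG9932-eGFP, 1174 lay at the shared promoter of a divergent gene pair. A summit is the base of highest enrichment in a peak. A summit was counted here when it was at most 500 bp from a transcription start site (TSS) of a minus-strand protein-coding gene and at most 500 bp from one of a plus-strand gene, and the minus-strand TSS had the lower coordinate, so that transcription runs outward from both. These summits made up 33.9% (95% Wilson interval 32.3 to 35.5) of the 3467 summits within 500 bp of any protein-coding TSS, and 17.3% of all conservative summits. Another 2227 promoter summits were near the TSSs of 1 gene only and serve as the comparison, and 66 were near several genes that form no such pair. The 1174 summits fell on 1082 gene pairs with 2161 genes. Arm 3R held the most, 314, followed by 3L with 229, 2L with 225, 2R with 219 and the X chromosome with 187. No divergent summit was on 4, which held 11 annotated pairs but 1 conservative peak in all.

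The series is a chromatin immunoprecipitation experiment with sequencing (ChIP-seq) in Drosophila melanogaster, with 2 biological replicates in 1 group of whole embryos collected at 8 to 24 h. Both replicates came from flies of the strain CG9932-GFP with a transgene for a CG9932-eGFP fusion protein, and chromatin, sonicated to pieces of 200 to 800 bp, was recovered with an anti-GFP antibody, although 1 label field names the antibody by its target, CG9932. The embryos were whole, so the peaks merge all cell types of the embryo, and they report the tagged transgene product. The labels point to another experiment as a possible control, which was not analysed here, and no sample groups exist to compare.

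In a divergent pair, the start sites of neighbouring genes lie head to head on opposite strands, and the short stretch between them can act as the promoter region of both genes. Such pairs are common in the compact fly genome and hold many housekeeping genes, those used by nearly every cell type. Promoters of fly housekeeping genes are known for motifs such as the DNA replication-related element (DRE), bound by the factor DREF, and Motifs 1, 6 and 7, whereas promoters of developmentally regulated genes more often carry GAGA elements, a TATA box or an initiator. The insulator protein BEAF-32 binds clusters of the short element CGATA, which is also part of the DRE, and is known to occur between head-to-head genes.

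The stretches between the start sites of 6 pairs are printed because they are the strongest divergent summits, present in both replicates' own peak sets, whose gap was 60 to 300 bp and free of annotated exons. They are read from the RefSeq copy of the BDGP6 (dm6) assembly, plus strand, 5' to 3', from the base after the minus-strand TSS to the base before the plus-strand TSS. Capitals mark, on either strand, the BEAF-32 element CGATA, the Motif 7 core CANCNCTA, and any of 5 short sequences found more often at divergent summits, which are described with the motif results.
CG7601 and CIA30, chr3R:29736746-29736964: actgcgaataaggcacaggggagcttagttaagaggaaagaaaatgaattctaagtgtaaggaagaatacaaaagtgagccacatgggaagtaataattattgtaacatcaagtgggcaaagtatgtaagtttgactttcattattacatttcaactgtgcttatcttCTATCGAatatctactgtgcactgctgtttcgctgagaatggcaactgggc
Atat and Shc, chr3L:9426759-9427009: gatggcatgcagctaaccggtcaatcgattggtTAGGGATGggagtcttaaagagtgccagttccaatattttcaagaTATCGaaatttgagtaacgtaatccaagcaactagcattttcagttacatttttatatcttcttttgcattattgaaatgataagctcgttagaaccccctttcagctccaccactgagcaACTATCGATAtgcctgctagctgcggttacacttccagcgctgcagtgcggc
Tcs5 and CHMP2B, chr3L:5139396-5139618: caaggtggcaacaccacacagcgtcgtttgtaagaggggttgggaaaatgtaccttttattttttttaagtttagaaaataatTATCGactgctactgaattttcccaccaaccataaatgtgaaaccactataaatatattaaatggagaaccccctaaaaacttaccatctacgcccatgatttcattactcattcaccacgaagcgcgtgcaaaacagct
Art3 and mRpS10, chr3R:15229409-15229664: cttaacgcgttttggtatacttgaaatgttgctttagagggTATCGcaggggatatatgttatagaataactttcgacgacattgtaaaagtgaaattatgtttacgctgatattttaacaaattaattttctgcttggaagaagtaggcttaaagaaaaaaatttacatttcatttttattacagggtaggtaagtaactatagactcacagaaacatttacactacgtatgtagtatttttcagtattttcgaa
CG13390 and CG17294, chr2L:8376798-8377034: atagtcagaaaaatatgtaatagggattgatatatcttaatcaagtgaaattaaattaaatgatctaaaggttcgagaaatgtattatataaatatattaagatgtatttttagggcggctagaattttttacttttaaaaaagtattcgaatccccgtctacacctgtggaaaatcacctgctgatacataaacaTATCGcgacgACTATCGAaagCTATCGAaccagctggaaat
Chro and Ssl1, chr3L:22878985-22879088: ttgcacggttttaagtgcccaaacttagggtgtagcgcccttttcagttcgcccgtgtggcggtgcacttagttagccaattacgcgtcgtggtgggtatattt
The element CGATA is present in 5 of these 6 stretches and the Motif 7 core in 1 of them, between Atat and Shc. In the stretch between CG13390 and CG17294 all 3 copies of CGATA lie near the plus-strand start, more than 100 bp from the summit at base 88 of the 237 printed. The stretch between Chro and Ssl1 has no marked letters, and its summit lies outside it, 85 bp into Chro. A match of letters is a description and not evidence of a bound factor.

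The strongest divergent summit lay between CG7601 (FBgn0027583) and CIA30 (FBgn0039689), which encodes an assembly factor of mitochondrial complex I. Its peak spanned chr3R:29736646-29737030 (dm6). The signal, the enrichment value of the authors' peak caller, was 4727 in the conservative set, rank 5 of 6790. In the replicates' own sets the signal of this peak was 2700 in replicate 1 (rank 6 of 6017) and 2091 in replicate 2 (rank 5 of 4525). Values of different sets are on scales of their own, so ranks are what can be set side by side. The peak ranked near the top of both replicates' lists, and its summit was 102 bp from the CG7601 TSS and 118 bp from the CIA30 TSS.

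The peak between Atat, an alpha-tubulin acetyltransferase, and Shc, an adaptor protein of receptor tyrosine kinases, reached a signal of 4721, and the replicates alone gave 2737 and 1986. Its summit, in chr3L:9426678-9427098, was 128 bp and 124 bp from the start sites, 252 bp apart. Another strong pair was Tcs5, a kinase of the complex that makes a modified base in transfer RNAs, and CHMP2B, a subunit of the ESCRT-III membrane-remodelling machinery, with 4240 in the conservative set and 2392 and 1859 in the replicates. These 3 summits all lay between the start sites, 102 to 124 bp from the nearer one.

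Each of 3 further pairs among the 15 strongest held a gene for a subunit of the mitochondrial ribosome. mRpS23 and CenG1A, a GTPase-activating protein for Arf, reached a signal of 3828 (2108 and 1730 in the replicates), and the summit was 105 bp from the CenG1A TSS and 387 bp from that of mRpS23. Art3, an arginine methyltransferase, and mRpS10 had 3752 (2193 and 1566), with the summit 127 bp and 130 bp from the start sites. At mRpL23 and CG9004, whose start sites are 50 bp apart, the signal was 3658 (2117 and 1546), and the summit was not between the start sites but 80 bp inside mRpL23. These pairs show the 3 arrangements found among the members: near 1 TSS of a wide gap, at the middle of a gap of about 250 bp, and beyond the start sites of a narrow one.

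Another 8 of the 15 strongest pairs had signals between 2202 and 3034 and were among the 50 strongest of all conservative peaks. They were Pex11ab, a peroxisomal membrane protein, with CG8320; CG13390 with CG17294; Pdrg1 with Pal1, a peptide-amidating lyase; the interband chromatin protein Chro with the TFIIH subunit Ssl1; the SWI/SNF chromatin remodeller brm with the Golgi GTPase Arl1; Mppe with the cohesin regulator pds5; CG10147 with Bulli, a subunit of a Rab-activating complex; and the mitochondrial protease Lon with PIG-F, of the pathway that makes membrane anchors of glycolipid. In 12 of the 15 the summit was between the start sites. In the others it lay inside CG8320 (the partner of Pex11ab), Chro and mRpL23, with gaps of 33, 105 and 50 bp.

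Genes in divergent pairs carried a summit more often than genes that stand alone. An annotated gene was called divergent when its TSS and an opposite-strand TSS of another gene face away from each other with at most 1000 bp between them, single when no other protein-coding gene has a TSS within 1000 bp, and bound when at least 1 of its TSSs had a conservative summit no farther than 500 bp away. Among all 13945 protein-coding genes on the arms, 29.9% were bound (30.1% with the replicate 1 set and 23.9% with the replicate 2 set). Of the 5052 divergent genes 2585 were bound, 51.2% (49.8 to 52.5), and of the 7960 single genes 1406 were bound, 17.7% (16.8 to 18.5). The difference was 33.5 percentage points (95% Newcombe interval 31.9 to 35.1). The interval leaves out 0, which is the threshold used for each difference here. Such intervals cover counting error over genes or summits of 1 experiment, which are not independent replicates, so each replicate's own peak set is given as the measure of repeatability: the shares were 52.5% and 17.3% in replicate 1, and 43.1% and 12.7% in replicate 2. Divergent genes stood above single genes in both.

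A summit between head-to-head start sites counts for both genes, and this moved the size of the difference. When each summit was given to its nearest gene only, an alternative chosen after the values were seen, 30.9% of divergent and 17.7% of single genes were bound, a difference of 13.2 points (11.7 to 14.7). Counting plus-strand genes only, so that each pair enters once, gave 33.8 points. In that count a summit nearer to the partner's TSS still makes the plus-strand gene bound, so it cannot show the effect of shared summits. Over the 2667 annotated pairs, both genes were bound in 1247 (46.8%), neither in 1160 (43.5%) and 1 of them in 260 (9.75%). Accessibility and expression of these promoters were not analysed here, and their part in the difference was not tested.

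**Figure D1:**
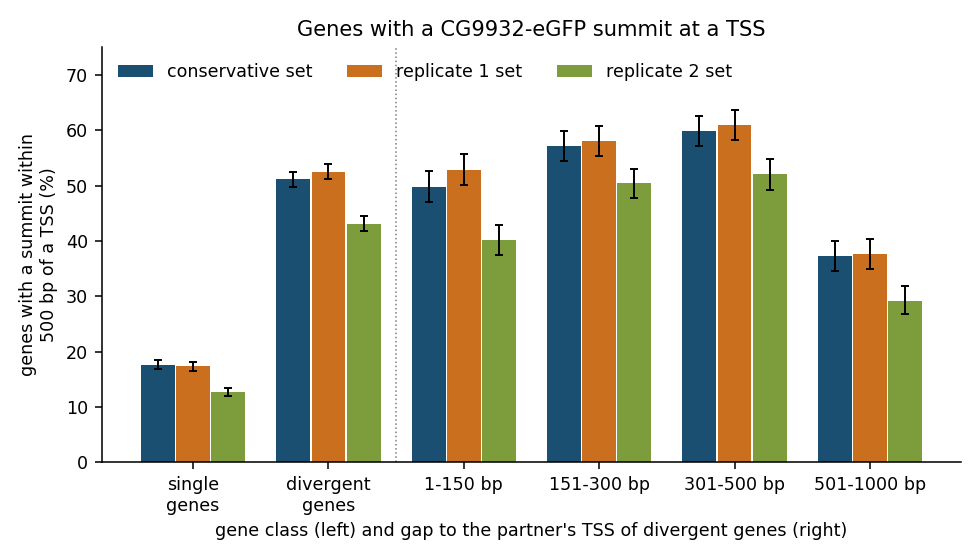
Share of protein-coding genes with a summit within 500 bp of a TSS (y axis, percent) for single and divergent genes and for divergent genes by the gap to the partner's TSS (x axis), with a bar for the conservative set and for each replicate's own set and 95% Wilson intervals as error bars. Divergent genes reached 51.2% in the conservative set against 17.7% of single genes. At gaps of 500 to 1000 bp, where a summit need not count for both genes, the share was 37.3%.

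The bound share differed between classes of gap, the distance between the start sites (each class below includes its upper limit and not its lower one). With gaps of up to 150 bp, 49.8% (47.1 to 52.6) of divergent genes were bound, with 150 to 300 bp 57.2% (54.5 to 59.8), with 300 to 500 bp 59.8% (57.1 to 62.5) and with 500 to 1000 bp 37.3% (34.6 to 40.0). The intervals of the middle classes overlap each other and do not overlap those of the narrowest and the widest class in the conservative set. Replicate 1 gave 52.9, 58.1, 60.9 and 37.6%, and replicate 2 gave 40.1, 50.4, 52.1 and 29.2%, in the same order of gaps. In replicate 1 the interval of the narrowest class (50.1 to 55.7) overlapped that of the next (55.4 to 60.7). In both replicates the widest gaps had the lowest share. Even there the share was above the 17.7% of single genes. Up to 500 bp, a summit between the start sites is always close enough to count for both genes. At wider gaps it can be too far from 1 of them, which can lower the share by rule. How much of the lower share this accounts for was not tested.

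Peaks at divergent pairs were stronger than peaks at single promoters. The median signal was 293 (quartiles 168 and 545) at the 1174 divergent summits and 182 (114 and 327) at the 2227 single ones. In the replicates' own sets the medians were 173 and 118 for replicate 1, and 147 and 104 for replicate 2, higher at divergent pairs in each. Of the divergent summits 64.4% were above the median of all promoter summits, against 42.4% of the single ones, a difference of 22.0 points (18.5 to 25.4). The 2 distributions nonetheless overlapped over nearly their whole range: the strongest promoter peak of all, with a signal of 7758, was at a single gene, the strongest divergent one reached 4727, and divergent pairs held 25 of the 50 and 106 of the 200 strongest promoter summits. Among gap classes the median signal was 257 at 1 to 150 bp, 368 at 150 to 300 bp, 277 at 300 to 500 bp and 216 at 500 to 1000 bp.

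**Figure D2:**
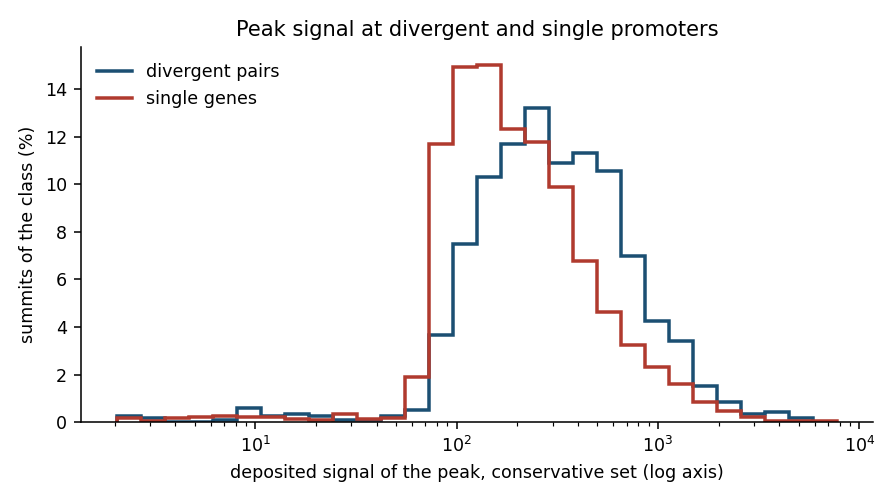
Distribution of the deposited peak signal (x axis, logarithmic) at summits of divergent pairs and of single genes in the conservative set, as percent of the summits of each class (y axis). The divergent distribution, with a median of 293, is shifted to higher values than the single one, with a median of 182, and both have a thin tail of low signals.

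Peaks at divergent pairs were also found again more often. In both replicates' own sets, 81.3% of divergent peaks had an overlapping peak, against 65.2% of single ones, a difference of 16.1 points (13.1 to 19.1). The replicate 1 set covered 94.6% and 82.9% of them, and the replicate 2 set 82.8% and 68.3%. Among conservative peaks above the median signal this difference was 0.167 points (-1.76 to 1.99), so it was seen with weak peaks included and not among strong ones. Of those strong peaks 862 of 906 divergent and 1191 of 1254 single ones were in both sets. Nearly all were found again in either class, which left little room for a difference. Of the members near the limit of the rule, the 63 whose farther TSS was less than 50 bp inside it had a median signal of 191, and the 61 summits up to 50 bp outside it had 196.

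Within the pairs the place of the summit followed the gap. At gaps of 150 to 300 bp the summit was near the middle: the median distance from the midpoint was 43.5 bp and 57.3% (52.3 to 62.2) of the 382 summits were within 50 bp of it. At gaps of 300 to 500 bp the median distance from the midpoint was 112 bp and 15.1% of 438 summits were within 50 bp of it, while the distance to the nearer TSS, 81.5 bp, was much like the 79 bp of the class before. The replicates' own sets gave 53.6 and 14.8% within 50 bp of the midpoint in replicate 1, and 61.7 and 21.4% in replicate 2. A stretch of 50 bp either side of the midpoint covers less of a wide gap than of a narrow one: on average it held 42.1% of the bases between the start sites in the first of these classes and 26.3% in the second. The share of summits was therefore above this even spread at 150 to 300 bp and below it at 300 to 500 bp. In replicate 2 the share at 300 to 500 bp, 21.4% (17.5 to 26.0), was close to the 26.5% of an even spread. Over gaps of 300 to 1000 bp, 242 of 544 summits (44.5%, 40.4 to 48.7) were on the minus-strand side and the others on the plus-strand side or exactly at the midpoint, and 86.2% were at most 150 bp from the nearer TSS. In a gap of 300 bp every base between the start sites is that close to one of them. The narrower of these gaps therefore favour a high share by rule, and no even spread was computed for it.

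**Figure D3:**
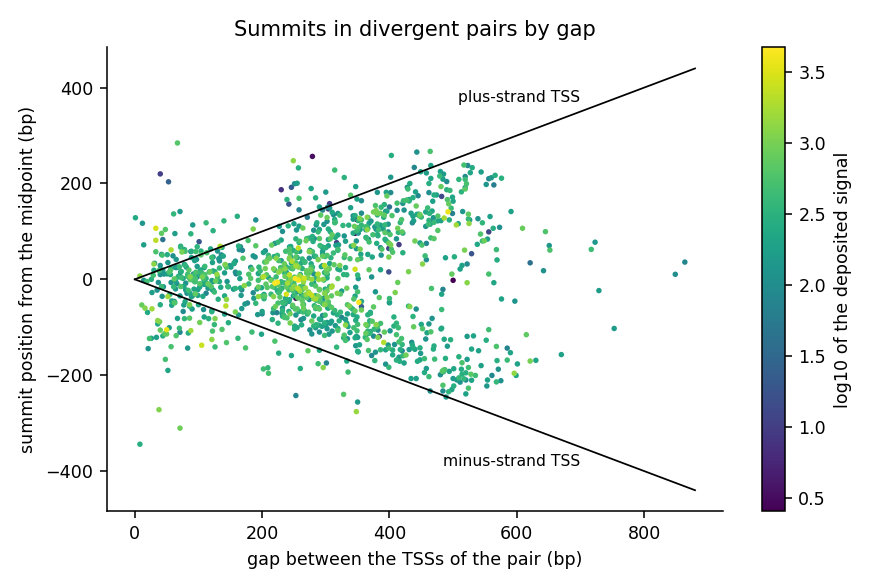
Position of each of the 1174 summits relative to the midpoint of its pair (y axis, bp, positive toward the plus-strand TSS) against the gap between the start sites (x axis, bp), coloured by the logarithm of the deposited signal; the black lines are the start sites. Points lie around the midpoint up to gaps of about 300 bp, most lie nearer to one start site or the other beyond, and the strongest summits gather near the midpoint at gaps of 150 to 300 bp.

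At narrow gaps the summit often lay beyond the start sites. With gaps of 1 to 150 bp, 54.4% (48.2 to 60.5) of 248 summits were between the start sites, with 150 to 300 bp 91.1%, with 300 to 500 bp 95.4%, and with 500 to 1000 bp 106 of 106, since the rule asks for both start sites within 500 bp. The narrowest bound pair was Atg6, a subunit of the lipid kinase complex of autophagy, and Pisd, a phosphatidylserine decarboxylase, with start sites 1 bp apart. Its summit was 128 bp inside Pisd, and its signal was 240, against 138 and 117 in the replicates' own sets. The widest was mRNA-cap, the mRNA capping enzyme, and CG32599, 864 bp apart, with a signal of 81.9 and a peak in neither replicate's own set. Over all gaps 85.8% of divergent summits were between the start sites, and 80.0% of single summits were upstream of their TSS. That difference of 5.80 points (3.14 to 8.35) did not last: it was 2.67 in the replicate 1 set and 1.89 in the replicate 2 set, both with intervals that include 0, and -2.82 among the peaks above the median signal.

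Most pairs had a lone summit (990 pairs), and 92 had 2. In 71 of the 92 pairs with 2 summits, 1 summit was nearer to each TSS, and in 57 the gap exceeded 300 bp for both. Among the first 3 such pairs by gene identifier were genes of cell division. At Nin, a centrosomal protein, and Bub1, a kinase of the spindle checkpoint, the signals were 348 and 9.56. At chif, the Dbf4-like activator of replication origins, and CG4455 they were 240 and 113. In both of these pairs the summits fell on the same single peak of each replicate's set, so the replicates alone did not separate them. At dup, the origin licensing factor Cdt1, and the splicing kinase SRPK the signals were 590 and 435, and each replicate had a peak for each summit (408 and 238 in replicate 1, 201 and 182 in replicate 2). For 61 of the 92 pairs both peaks overlapped a peak of both replicate sets, but this counts pairs whose summits share a single replicate peak. Each summit had a replicate peak of its own in 39 pairs in replicate 1, in 20 in replicate 2 and in 14 in both.

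The strongest divergent peaks lay farther from the start sites than the weakest. When the members were ranked by signal and divided into 4 groups of equal size, a division chosen after the values were seen, the median distance to the nearest TSS was 91 bp in the strongest group, then 74 and 65 bp, and 51.5 bp in the weakest. Replicate 1 gave 87, 70, 61 and 48 bp, and replicate 2 gave 94.5, 81, 71 and 61 bp. The order was the same in both. At single genes the strongest group also lay farther from the TSS than the weakest, with 134, 102, 106 and 117 bp from strongest to weakest. The strongest and weakest groups were at 119 and 98 bp in replicate 1 and at 141.5 and 110 bp in replicate 2. In none of these sets was the weakest single group the nearest. The GC content within 100 bp of the summit rose from a median of 33.8% in the strongest to 37.3% in the weakest group of divergent summits, and from 36.8 to 47.3% at single summits. Whether the classes differ in either trend was not tested.

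Motifs were sought on both strands within 100 bp of each summit, and the background was the 200 bp upstream of all 13945 genes. The searched letters were TATCGATA for the DRE, with CGATA, its inner part, for the BEAF-32 element. They were GGTCACACT for Motif 1, with GTATNTTT for Motif 6 and CANCNCTA for Motif 7. An E-box was CAGCTG, the GAGA element was GAGAG, and the TATA box was TATAAA, while the initiator core was TCAGT. The BEAF-32 element was in 55.5% of divergent and 38.8% of single windows, a difference of 16.7 points, with 38.4% over all genes. The DRE was in 14.2% and 8.35%, with 7.39% over all genes, and Motif 7 in 26.7% and 17.2%, with 9.65% over all genes. GAGA went the other way, with 14.0% of divergent and 26.9% of single windows (-13.0 points) and 22.2% over all genes. Upstream of single genes alone, the BEAF-32 element was in 32.3% (40.0% of bound and 30.7% of unbound ones). The DRE was in 8.32% of bound and 3.92% of unbound single genes. GAGA was in 26.1% of single genes (33.2% of bound and 24.5% of unbound ones). At the midpoints of all annotated pairs, with or without a summit, GAGA was in 14.5%, near its share at divergent summits.

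For 8 of the 9 motifs the interval of the difference between divergent and single summits left out 0. The differences for the DRE, the BEAF-32 element, Motif 7, GAGA and TATAAA kept their side of 0 in each alternative run, including each replicate's own set and the peaks above the median signal. TATAAA was in 36.7% of divergent and 27.7% of single windows, with 37.0% over all genes, so the divergent share was at the level of promoters at large. Divergent windows were richer in A and T (median GC 35.3% against 39.8%), and TATAAA is itself made of these bases; the part of base composition was not tested. The differences for Motif 1 (5.96 against 3.77%), Motif 6 (12.6 against 9.74%) and the initiator core (29.5 against 34.7%) were not past 0 in every alternative. The E-box, in 14.1% and 12.5%, was the motif whose interval included 0. Divergent windows also lay closer to start sites: 71.6% of divergent and 45.0% of single summits were within 100 bp of the nearest TSS. The part of this in the motif differences was not tested.

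**Figure D4:**
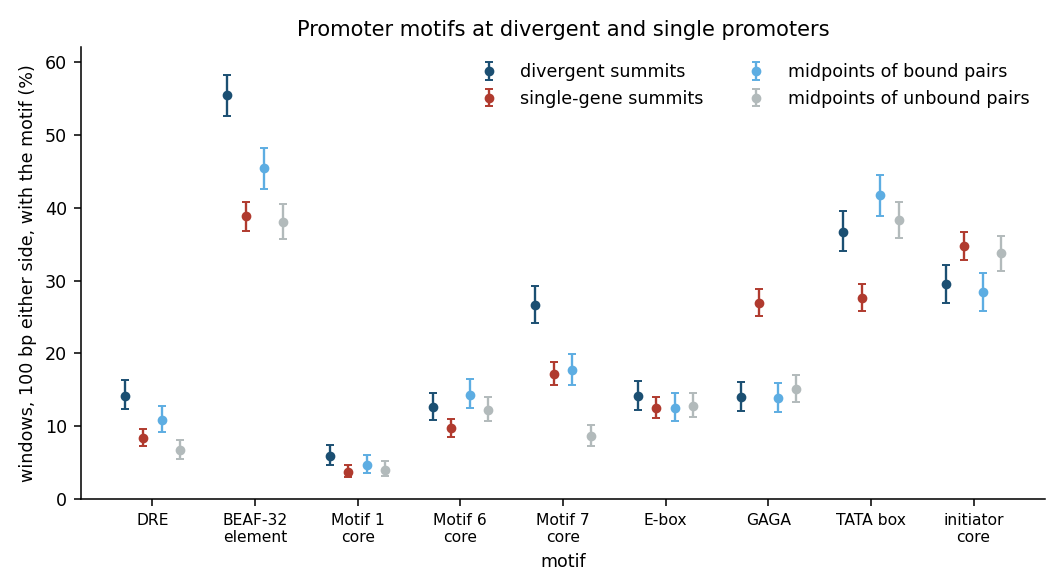
Share of windows, 100 bp either side, that hold each motif on either strand (y axis, percent) at divergent summits, at single-gene summits and at the midpoints of annotated pairs with and without a summit, with 95% Wilson intervals. The BEAF-32 element reaches 55.5% at divergent summits against 38.8% at single ones, GAGA is lower at divergent summits (14.0 against 26.9%), and Motif 7 is higher at bound than at unbound midpoints (17.7 against 8.68%).

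Among divergent pairs themselves, those with a summit differed from those without in fewer motifs. Windows of the same width at the midpoint of the 1170 pairs with a summit and the 1497 without held Motif 7 in 17.7% and 8.68% (9.01 points), the BEAF-32 element in 45.4% and 38.1% (7.31 points), the DRE in 10.9% and 6.75% (4.11 points), and the initiator core in 28.4% and 33.7% (-5.36 points). The last 2 were not past 0 in every alternative. For the DRE the difference was 2.07 points (-0.117 to 4.41) in the replicate 2 set and 1.99 (-0.224 to 4.36) among peaks above the median signal. For the initiator core it was -1.67 (-6.19 to 2.96) with a TSS window of 200 bp and -1.65 (-5.46 to 2.16) with motif windows of 200 bp. The other 5 motifs had intervals that include 0. GAGA, which set divergent apart from single summits, was at 13.8% and 15.1% in bound and unbound pairs. Bound pairs had a narrower median gap, 268.5 bp against 372 bp, which places the midpoint window differently relative to the start sites, and the part of this in the motif shares was not tested.

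Within the divergent summits the Motif 1 core, a binding sequence of the factor M1BP, went with weak peaks. It was in 4 of the 293 windows of the strongest group (1.37%) and in 40 of the 294 of the weakest (13.6%), a difference of -12.2 points (-16.7 to -8.20). In between the shares were 5.10 and 3.75%. Replicate 1 gave 1.34% in the strongest and 11.4% in the weakest group, and replicate 2 gave 1.25% and 8.30%. Motif 7 ran the opposite way, from 29.0% in the strongest to 18.7% in the weakest group (10.3 points, 3.41 to 17.1), but in the replicate 2 set this difference was 3.01 points (-4.61 to 10.6). TATAAA fell from 45.7 to 34.0% (11.7 points, 3.80 to 19.4). Single summits had both of these trends too, with Motif 7 in 21.0% of the strongest and 9.87% of the weakest group (11.2 points, 6.96 to 15.4) and TATAAA in 32.0 and 20.3% (11.7 points, 6.58 to 16.8), although in the replicate 2 set both intervals included 0 (3.37 and 4.44 points). At single genes Motif 1 was in 2.70% of the strongest and 1.62% of the weakest group, an interval that includes 0. The DRE differed between the strongest and weakest divergent groups by -6.02 points in replicate 1 and -9.09 in replicate 2, with intervals below 0. In the conservative set (-3.36 points) the interval included 0. For the BEAF-32 element it was below 0 in replicate 2 only (-16.4 points). Single summits of the conservative set had both more often in the strongest than the weakest group (7.91 against 3.41% and 41.7 against 28.2%). In replicate 2 those intervals included 0. Differences between the classes in these trends were not tested.

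An open search of all sequences of 7 bases, within 50 bp of a summit, gave 3 that hold CGATA on one strand or the other among the 12 picked. These 12, the sequences most in excess at divergent summits over unbound midpoints, were picked on 2L, 3L and 3R and counted on 2R and X, which had no part in the choice. On 2R and X, 5 of the 12 had an interval above 0. ACTATCG was in 12.8% of divergent windows against 3.98% of unbound midpoints (8.83 points). The DRE-like ATCGATA was in 19.0% against 10.7%, and CTATCGA was in 15.3% against 7.05%. The other pair of sequences, AGTGTTG with 8.37% against 2.89% and AACACTG with 7.39% against 2.71%, share the letters AGTGTT on one strand or the other and hold none of the 9 motifs. The remaining 7 were made of A and T almost throughout and were not in excess there. Against single summits on the same arms, the first 3, which all hold CGATA on one strand, still had intervals above 0 (5.31, 5.62 and 5.79 points). Over all arms, divergent summits lay a median of 70 bp from the nearest TSS, while unbound pairs had a median gap of 372 bp. Windows at summits and at unbound midpoints are therefore placed differently relative to the start sites. Single summits also lay farther from start sites than divergent ones. The part of this placement in either excess was not tested.

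The share of windows with any of these 5 sequences is given as a description only, since the 5 were chosen by their counts on all of these arms. On 2R and X it was 32.8% of 406 divergent windows, 22.5% of single windows and 16.8% of unbound midpoints. On 2L, 3L and 3R it was lower in each class, at 25.8%, 19.0% and 10.8%. Windows 100 bp upstream of all genes on 2R and X held one in 11.8%. In divergent windows on 2R and X that held one within 100 bp, its median distance from the summit was 28.5 bp for ACTATCG and 37 bp for AACACTG, with the other 3 in between. Single summits on these arms gave 23.5 bp for ACTATCG and 34 bp for AACACTG, again with the other 3 in between, so short distances were not particular to divergent pairs. The sequences were picked by counts within 50 bp of divergent summits, which by itself favours short distances there.

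The difference in binding between gene classes was also counted separately for genes with and without the BEAF-32 element upstream. CGATA was within the 200 bp upstream of 49.7% of divergent and 32.3% of single genes. Among genes with it 54.9% of divergent and 21.9% of single genes were bound, and among genes without it 47.5% and 15.6%. The difference between the classes was 33.0 points with the element and 31.9 without, a split chosen after the values were seen. The split covers only the 200 bp upstream of a gene's own start, while bound means a summit within 500 bp of any of its TSSs. A divergent gene counted as without the element can have it elsewhere in the gap. Shared summits count for both genes here too. The part of the element in the difference was not tested.

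Gene groups were compared by symbol, as counts with no test. A listed gene counted as bound even where the summit lay nearer to its partner. Among the strongest pairs named below, some summits were nearer to the partner and others to the listed gene. At CG8229 and the import gene Tom7 the summit was 49 bp and 460 bp from the start sites. At the ribosomal gene RpL32 and CG7943 it was 138 bp and 171 bp from them. Ribosomal proteins of the cytosol had 42 of 55 divergent genes bound, and of their 34 single genes 21 were bound, the highest single share of any list with more than 4 single genes. The strongest divergent peak of that group was at RpL32 and CG7943, where the signal was 1645 (1007 and 694 in replicates 1 and 2). Mitochondrial ribosomal proteins were mostly divergent, 58 genes of 73 (79.5%, against 36.2% of all genes). Of these 42 were bound, but 1 of 13 single members. For comparison, 51.2% of all divergent and 17.7% of all single genes were bound.

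Several other groups of general cell machinery were mostly divergent and often bound. Of nuclear pore genes 18 of 21 were divergent and 13 of these bound, the strongest at RpS27 and Nup37, subunits of the ribosome and the pore (signal 1296, with 808 and 483 in replicates 1 and 2). Splicing genes had 18 of 26 divergent members bound, led by snRNP-U1-C with gukh (725). Mediator and TFIID subunits had 21 of 31 bound, led by elm with MED27 (1417). Autophagy genes had 11 of 16, led by CG12093 with Atg2 (1277), and Rab GTPases, which direct vesicle traffic, had 13 of 17, led by Rab30 with Caper (843). In each of these 5 groups the divergent share bound was above that of divergent genes at large.

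Other groups lay nearer the general share. Proteasome genes had 15 of 26 divergent members bound, led by the lid subunit Rpn6 with ave (1244), and aminoacyl-tRNA synthetases 13 of 22, led by SerRS with CG17260 (1266), whose start sites are 8 bp apart. Vacuolar ATPase genes had 8 of 14, led by Vha16-5 with CG12299 (830). Mitochondrial import had 3 of 5, led by CG8229 with Tom7 (393). Oxidative phosphorylation had 21 of 43, led by the complex I subunit ND-ASHI with Fum1, a fumarase (1209). Cell cycle and replication genes had 11 of 25, led by orb with Cdc16, a subunit of the anaphase-promoting complex (857), and translation initiation factors 9 of 21, led by RpL28 with eIF1 (535). Heat shock proteins had 2 of 4 bound.

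The lists of chemosensory receptors, cytochrome P450, accessory gland and cuticle genes had smaller divergent shares than the 36.2% of all genes, and smaller shares of their divergent members bound than the 51.2% of all divergent genes. Of chemosensory receptors 26 of 179 were divergent and 4 bound, the strongest at Ir60e and CG13585 (367), and Gr32a was unbound. In the replicates' own sets 2 and 1 of these 26 were bound. Of 85 cytochrome P450 genes 13 were divergent and 1 of these was bound, and Cyp28a5 was not. Of 47 accessory gland and seminal fluid genes 4 were divergent and 1 was bound, at Sfp26Ad and the metabolic gene Gpdh1 (621), where the summit lay 6 bp inside Gpdh1. The cuticle list had 13 of 119 genes divergent and 1 of these bound, at Pez and Cpr (186), but Cpr encodes cytochrome P450 reductase and was caught by the symbol pattern alone, so 0 divergent cuticle genes proper were bound, Ccp84Ad among them. The Hox list had no divergent member, and 2 of its 7 single members were bound (1 in each replicate's own set), against 17.7% of all single genes.

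**Figure D5:**
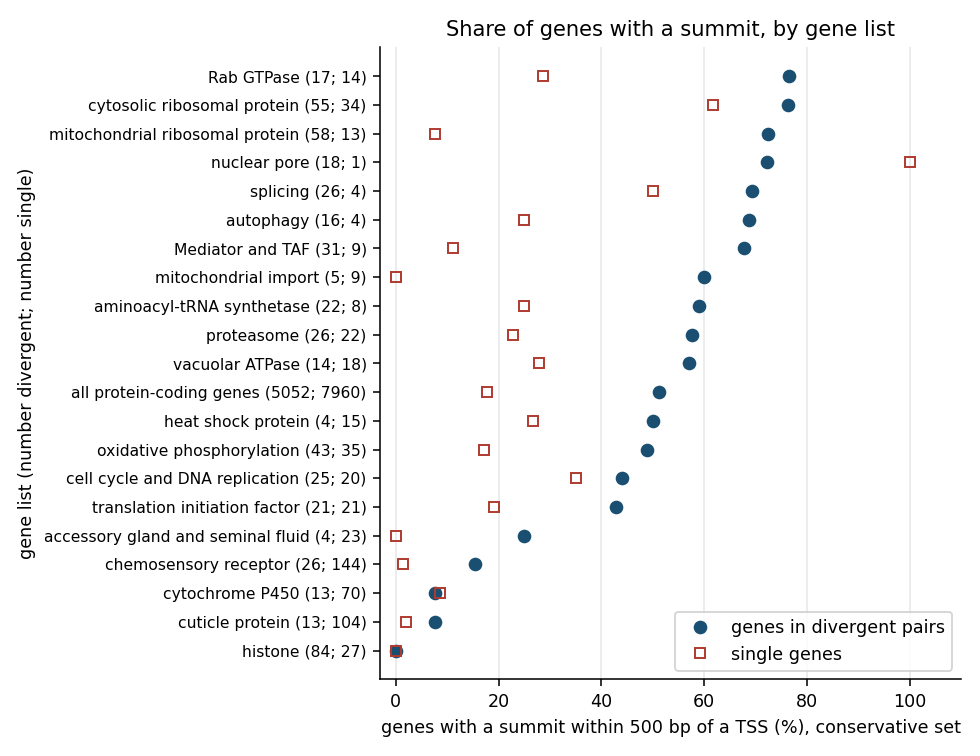
Share of genes with a summit within 500 bp of a TSS (x axis, percent) in each gene list (y axis, with the number of divergent and of single genes) for divergent genes, filled circles, and single genes, open squares. Ribosomal, Rab, nuclear pore and splicing lists lie above the 51.2% of all divergent genes, and the histone, cuticle, P450 and chemosensory lists lie at the low end; lists with few single genes give coarse shares.

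The histone list held the largest divergent group with no summit. Of its 111 genes 84 were divergent, in 42 pairs of histone with histone. Of these 84, 0 were bound in the conservative set or in either replicate's set. His2A:CG31618, 129 bp from its partner's TSS, is one of the 84. The list was made by symbol pattern and does not hold every histone gene. His3.3A is not on it, and its pair with CG14036 had a summit (signal 113). The repeated histone genes span chr2L:21416953-21541681, which held 0 conservative summits, although the full ranked lists held 3 peaks there in replicate 1 and 1 in replicate 2. The copies are nearly identical and how reads from such repeats were placed is not stated, so a lack of peaks there does not show a lack of binding. Without the listed histone genes the difference in bound share between divergent and single genes was 34.3 points. Over all annotated pairs, 1170 of 2667 (43.9%) had a summit. Of the other pairs whose genes are both on 1 list, 4 pairs of cuticle genes, 3 of chemosensory receptors, 3 of cytochrome P450 genes and Hsp67Bc with Hsp22 had none, and all but the last are from lists whose divergent genes were seldom bound in any case. The pair with a summit was Taf10b and Taf10, subunits of TFIID whose start sites are 45 bp apart, with a signal of 126, found in the replicate 1 set (82.5) but not in that of replicate 2.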

How the data were processed

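The measurements are the authors' deposited peak lists on dm6, 1 set from each of 2 biological replicates and a conservative and an optimal set from both, per the deposited file descriptions. The signal of each peak is a value the authors deposited from their peak caller and was used only within a list, and the summit offset, also deposited, gave the summit. The sources used here give no caller, aligner or settings, read depth is unknown, and 36 further value columns of the series files were not used. Embryo age was read from the source name, because the age field holds an implausible number of hours.

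TSSs came from protein-coding transcripts of Ensembl release 115 (BDGP6). A summit with several candidate pairs was given the pair with the smallest summed distance. Differences of shares have 95% Newcombe intervals and single shares 95% Wilson intervals, both for counting error only; no p-value was computed. Peak overlap needed at least 1 bp. Named pairs are the 15 strongest in both replicate sets, the strongest of each of 21 gene lists, pairs within a list, the first 3 by identifier with the most summits, the narrowest and the widest, and, where under 25% of a list's divergent genes were bound, its first unbound gene in alphabetical order. One of the named pairs is not reported here. The members and the lists were chosen with earlier results of these data known.

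Alternatives were TSS windows of 200 and 1000 bp, the optimal set, peak centres, each replicate's own set, gene starts only, peaks above the median signal, other motif windows, genes with 1 TSS, plus-strand genes only and a stricter overlap; added after the values were seen were leaving out histone genes or single promoters near non-coding RNA starts, splitting by CGATA, gaps of at most 500 bp, nearest genes only, and swapping the arms used to pick sequences. Python 3.11.15, numpy 2.4.6, scipy 1.17.1 and matplotlib 3.10.9 were used, and the steps were tested on simulated data.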

Additional observations from a re-analysis of the deposited data

How the results depend on the processing

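The bound share of divergent over single genes kept its direction and its side of 0 in each alternative run (13.2 to 38.0 points), as did the signal difference (17.6 to 22.5 points). Divergent summits numbered 557 with a TSS window of 200 bp. Their share of promoter summits was 20.1% at 200 bp, 37.8% at 1000 bp, 36.1% with gene starts only, 41.2% among peaks above the median signal, and 34.7 to 37.3% in the replicates' own sets. The excess of divergent peaks in both replicate sets was 0.167 points above the median signal. The excess of summits between the start sites was 1.89 to 2.67 points in the replicates' own sets, -1.78 at 200 bp and -2.82 above the median signal. Sequences of 7 bases past 0 on the other arms numbered 9 when picked on 2R and X. Of the motif differences at summits, Motif 1 was -0.842 above the median signal and the E-box -0.553 with windows of 50 bp. Between bound and unbound pairs, Motif 1 was -0.686 and -1.50 in the replicate 2 set and above the median signal (0.626 in the main comparison and 1.16 in the replicate 1 set), Motif 6 was -1.15 at 200 bp, the E-box was 2.36 at 200 bp and 9.07 with motif windows of 200 bp, and TATAAA was -6.22 and -1.75 in those settings. The cause of these changes was not tested. Read depth is unknown, so the precision rests on the number of peaks. No paired analysis was possible because the series has 1 group.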
